A study of Danio rerio with 15 samples.

Results

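Depleted testes of adult zebrafish (Danio rerio, wild type) were compared with control testes by RNA sequencing. The comparison rests on the 9 libraries titled as depleted or control, of 14 libraries with counts in the series: 5 depleted testes (replicates 1 to 5) and 4 control testes (replicates 1, 3, 4 and 5). Both groups share their genotype, age class and tissue, and in the labels they differ in the state that the titles name. The way of depletion, its duration and any dose are not given in the labels, which also do not say whether a library came from 1 fish or from pooled testes. Retinoic acid, androgens and follicle-stimulating hormone appear in the series title.

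In the zebrafish testis, germ cells develop in cysts that are enclosed by Sertoli cells within tubules. Spermatogonia divide, enter meiosis as spermatocytes and become spermatids, which build a flagellum. Leydig cells between the tubules make androgens under luteinizing hormone, and follicle-stimulating hormone acts on Sertoli and Leydig cells of fish. Vessels, blood cells, macrophages and connective tissue make up the rest of the organ. In whole-testis RNA, fewer cells of a type and less RNA per cell cannot be told apart.

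Depleted libraries held 8123444 to 10059498 counts and control libraries 8617589 to 48646941 counts, with control replicate 5 the deepest. Gene values are counts per 1000000 counts, scaled by edgeR's trimmed mean of M-values (TMM) and written CPM here. Depleted libraries were less alike than control libraries: over the tested genes the correlation of log2 CPM was 0.742 to 0.913 among the 10 depleted pairs and 0.951 to 0.964 among the 6 control pairs. The common dispersion was 0.399 within depleted and 0.0765 within control testes. The tissue label was checked against defining markers of the testis, and control libraries held transcripts of germ cells (PIWIL1, 2346, 2335, 2147 and 2262 CPM), Sertoli cells (amh, 392, 183, 358 and 479 CPM) and Leydig cells (insl3, 707, 419.9, 551 and 769 CPM).

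Several depleted libraries also held transcripts of neighbouring organs. The summed CPM of 6 liver genes was 4376, 454, 81.5, 15289 and 561 in depleted replicates 1 to 5 and 64.9, 23.3, 268 and 196 in control replicates 1, 3, 4 and 5. The summed CPM of 6 exocrine pancreas genes was 230.3, 10621, 58.1, 303 and 30.0 in depleted and 73.7, 38.7, 22.9 and 94.9 in control libraries. Liver transcripts were thus highest in depleted replicates 4 and 1, and pancreatic ones in depleted replicate 2. The liver sums of depleted replicates 2 and 5 also lay above every control. They were made up mostly of tfa, at 435 and 548 CPM there and 7.67 to 117 CPM in control libraries. The other liver genes lay within or below the control range in these libraries. Muscle genes stood out in depleted replicate 5, with 452 CPM against 56.9 to 62.1 CPM in the other depleted libraries and 48.7 to 64.9 CPM in control libraries. Fat genes reached 262 to 1089.9 CPM in depleted and 25.7 to 48.3 CPM in control libraries, without overlap, a sum made up mostly of cfd and LPL. The 3 tested fat genes, cfd, LPL and ADIPOQ, were all called higher, where 32.4% of all genes tested rose. ADIPOQ had 2.25 to 5.56 CPM in depleted and 1.11 to 2.02 CPM in control libraries (log2 fold change 1.29, edgeR adjusted p = 0.0114). The adipocyte marker plin1, not tested, lay at 0 to 0.681 CPM in depleted libraries and 0.404 to 2.63 CPM in control libraries. Also not tested, fabp4a had 0.114, 0, 0, 0.391 and 0.132 CPM in depleted libraries and was at 0 in all 4 control libraries. Yolk proteins lay at 1.62 to 4.76 CPM in depleted and 3.49 to 4.96 CPM in control libraries. Among the markers of other organs 1 FABP1 identifier (ENSDARG00000059227) was at 0 in all 9 libraries. A fit without depleted replicates 1, 2 and 4 was added after the data were seen, and its values stand beside several of the results below. It compares only depleted replicates 3 and 5 with the controls. The part of these transcripts in the other results was not tested.

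**Figure D1:**
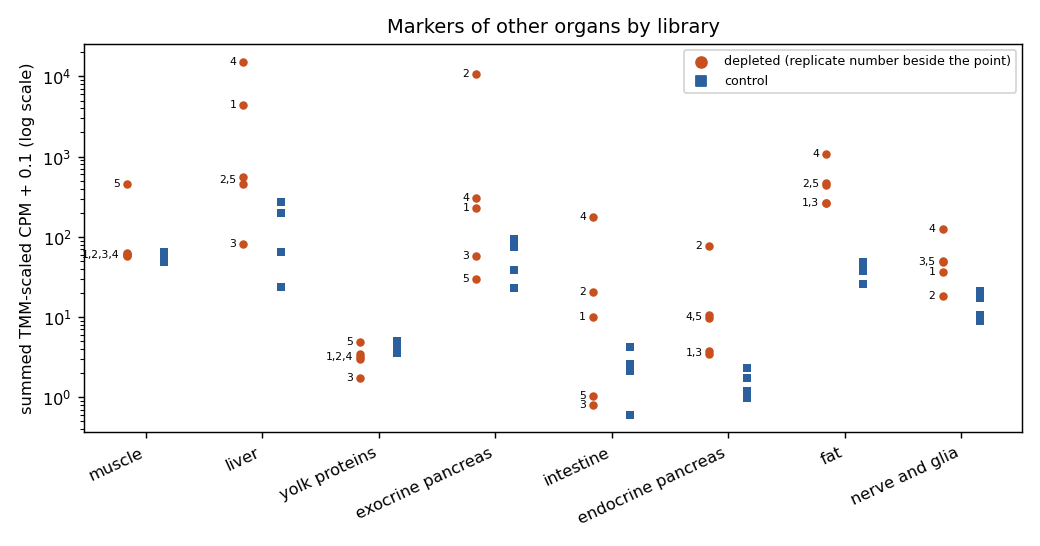
Summed TMM-scaled CPM of the marker genes of 8 organs or tissues outside the testis, on a log scale with 0.1 added. Circles are the 5 depleted libraries with their replicate numbers and squares are the 4 control libraries. Depleted replicate 4 stands at 15289 CPM for liver and depleted replicate 2 at 10621 CPM for exocrine pancreas.

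Most of the expressed transcriptome differed between depleted and control testes. Of 20372 genes tested, 12453 (61.1%) changed at an adjusted p under 0.05 in edgeR's quasi-likelihood test. Of all genes tested, 6595 (32.4%) rose in depleted testes and 5858 (28.8%) fell. The median log2 fold change was 1.90 among the rises and -1.65 among the falls. Among called genes, 9950 (48.8% of those tested) moved by more than 1 on the log2 scale. A change past 4-fold was found for 3055 rises and 2234 falls, and one past 16-fold for 359 rises and 182 falls. The median log2 fold change over all tested genes was 0.04 with TMM scaling, -0.09 with DESeq2 size factors and -0.32 with total counts. Rises made up 52.96% of the calls with TMM and 40.3% with total counts, where 5103 genes rose and 7566 fell.

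A large difference did not always pass the test. A further 1669 genes differed by more than 2-fold without being called, 1038 of them lower and 631 higher in depleted testes. The lower genes among them varied more between depleted libraries, with a median SD of log2 CPM of 1.76, than the called falls past 2-fold, with a median SD of 0.924. The test weighs a difference against the spread, so this gap largely follows from how the genes were split. Many genes of the germ line belong to these uncalled genes and are described with their values.

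The leading rises included genes of host defence (defbl1, PTX3) and of the extracellular matrix (LUM, FN1, SPON2). The 12 largest rises among genes with a descriptive symbol, at least 10 CPM in depleted testes and no overlap between groups lay between log2 fold changes of 5.51 and 7.05. Defensin beta-like 1 (defbl1), an antimicrobial peptide, had 14.3, 7.35, 92.5, 6.78 and 66.2 CPM in depleted testes 1 to 5, against 0.505, 0, 0.446 and 0.197 CPM in control testes 1, 3, 4 and 5. Every depleted library lay above every control library, as the rule asked, and depleted replicates 3 and 5 were highest (log2 fold change 7.05, SE 1.21, adjusted p = 0.00127; 6.40 without depleted replicate 3). Pentraxin 3 (PTX3, ENSDARG00000068275), a soluble pattern-recognition protein, had 10.98, 2.45, 113, 6.51 and 144 CPM in depleted and 0.707, 0.101, 0 and 0.698 CPM in control testes. It was again highest in depleted replicates 3 and 5 (log2 fold change 7.03, SE 1.58, adjusted p = 0.00475; 6.31 without depleted replicate 5 and 7.69 without control replicate 5).

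Matrix genes among the leading rises were highest in depleted replicate 5. The proteoglycan lumican (LUM) had 6.18, 9.40, 44.0, 19.7 and 214 CPM in depleted and 0.404, 0.404, 0.371 and 0.877 CPM in control testes, a log2 fold change of 6.69 that was 5.15 without depleted replicate 5. Of the 2 fibronectin identifiers (FN1), ENSDARG00000019815 had 490.2, 149.5, 794, 412 and 2655 CPM in depleted and 17.4, 5.05, 8.61 and 9.52 CPM in control testes (log2 fold change 6.47, SE 0.97, adjusted p = 0.000706; 5.53 without depleted replicate 5). Spondin 2 (SPON2), a matrix protein, had 16.7, 23.3, 34.2, 75.3 and 174 CPM in depleted and 1.52, 0.908, 0.891 and 1.93 CPM in control testes, with a log2 fold change of 5.58 (4.80 without depleted replicate 5). The secreted angiopoietin-like angptl2a had 3.66, 0.409, 5.33, 6.12 and 36.1 CPM in depleted and 0.303, 0.101, 0 and 0.197 CPM in control testes, and its depleted replicate 2 lay close to the controls.

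Clusterin (CLU), a secreted chaperone abundant in mammalian Sertoli cells, had 81.7, 182, 534, 131 and 953 CPM in depleted and 9.80, 4.34, 3.64 and 10.1 CPM in control testes. Its lowest depleted library lay above its highest control library, as the rule asked (log2 fold change 5.75, SE 0.90, adjusted p = 0.000862; 5.07 without depleted replicate 5). The remaining leading rises were the chemokine receptor ccr12b.2 (6.04), the protein disulfide isomerase pdia2 (6.01), the alpha-tubulin tuba8l3 (5.51; 4.88 without depleted replicate 5) and the jacalin-family genes jac7 and jac2. Known from other species as a pancreatic enzyme, pdia2 had 34.2, 83.5, 6.14, 101 and 141 CPM in depleted and 1.62, 0.706, 0.891 and 1.27 CPM in control testes. The part of pancreatic tissue in this rise was not tested. The 2 jacalin-family genes were carried by different libraries. The values of jac7 were 132, 35.9, 11.1, 76.1 and 30.4 CPM in depleted testes, against 0.404, 0.505, 0.965 and 1.503 CPM in control testes (log2 fold change 5.96; 5.37 without depleted replicate 1). Those of jac2 were 6.06, 4.09, 3.83, 116 and 9.13 CPM in depleted testes, against 0.606, 0.807, 0.446 and 0.573 CPM in control testes (log2 fold change 5.52; 3.27 without depleted replicate 4).

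Pim-related kinase genes made up most of the leading falls. Of the 12 largest falls chosen by the same rule, 8 had pimr symbols, which name Pim proto-oncogene kinase-related genes. Members of a gene family can share reads, and how the authors' counting treated shared reads is not given, so single values are uncertain. Over the family, 46 of 62 tested members fell and 0 rose, where 28.8% of all genes tested fell and 32.4% rose. The other 16 were not called, and the median log2 fold change was -3.54. The largest fall was pimr196, with 0.114, 1.77, 0.116, 0.130 and 0 CPM in depleted and 28.6, 29.8, 29.4 and 24.6 CPM in control testes (log2 fold change -6.06, SE 0.85, adjusted p = 0.000554). The values of pimr177 were 0.229, 1.91, 0, 0 and 0.397 CPM in depleted and 16.9, 18.7, 28.5 and 19.9 CPM in control testes. In each of the 8 members the highest depleted value was that of replicate 2, and leaving it out moved the log2 fold change of pimr196 to -8.13 and that of pimr177 to -7.01.

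The other leading falls were DNALI1, TSSK6, NAMPT and nptxrb. DNALI1, a light intermediate chain of axonemal dynein, had 0.686, 0.272, 0.580, 0 and 0.265 CPM in depleted and 39.4, 9.79, 19.97 and 8.87 CPM in control testes (log2 fold change -5.69, SE 0.73, adjusted p = 0.000398). TSSK6, a testis-specific kinase of spermatids in mammals, had 0.229, 4.09, 0.116, 0 and 0.265 CPM in depleted and 27.1, 29.4, 31.2 and 27.9 CPM in control testes (log2 fold change -4.97; -7.48 without depleted replicate 2). NAMPT (ENSDARG00000076694, 1 of 2 identifiers), an enzyme of NAD synthesis, had 0.915, 3.68, 0.232, 0.130 and 0.132 CPM in depleted and 25.5, 27.5, 20.05 and 15.7 CPM in control testes (log2 fold change -4.45; -5.90 without depleted replicate 2). The neuronal pentraxin receptor nptxrb had 0 to 1.36 CPM in depleted libraries and 6.17 to 14.4 CPM in control libraries (log2 fold change -4.36; -5.08 without depleted replicate 2). In all 4 genes every depleted library lay below every control library, since the rule asked for this.

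**Figure D2:**
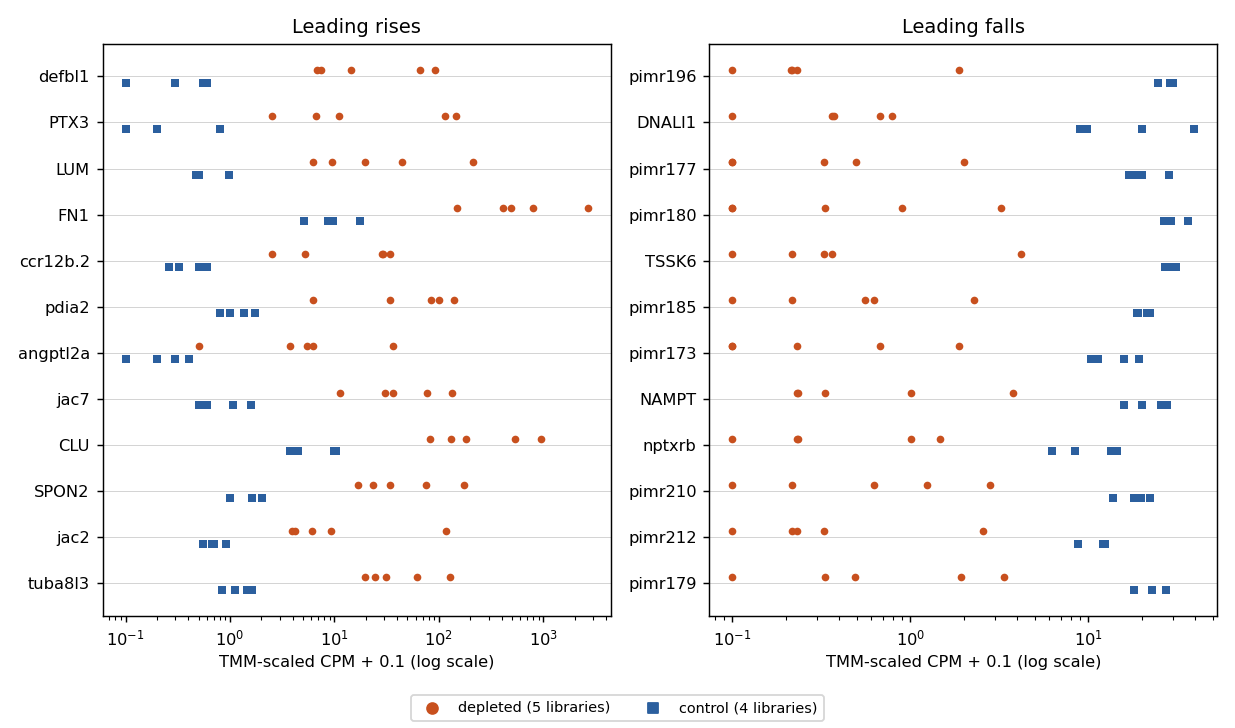
TMM-scaled CPM of the 12 leading rises and the 12 leading falls, on a log scale with 0.1 added. Circles are the 5 depleted libraries and squares the 4 control libraries; the groups do not overlap in any of the 24 genes, since the rule asked for this. For defbl1 the depleted values lie between 6.78 and 92.5 CPM.

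Germ plasm and piRNA genes had a lower summed level in every depleted library than in any control library, but few of them passed the test. The list of the germ plasm and the piRNA pathway, which silences transposons in germ cells, had 20 tested members with a median log2 fold change of -2.21. Of these 5 fell, a share near the 28.8% of all genes tested that fell, 0 rose and 15 were not called. Yet 17 of the 20 lay below all controls in every depleted library (28.6% of all genes tested did, and 54.8% separated in either direction). The summed CPM of the list was 3421, 3984, 149, 534 and 77.4 in depleted and 9030.4, 9108, 8132 and 8579.7 in control libraries. Depleted replicates 1 and 2 lay closest to the controls, and replicates 3 and 5 were lowest. The fold changes compare group means, in which the highest depleted libraries weigh most.

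The germ cell marker DDX4 (vasa), an RNA helicase, had 669.6, 632, 26.2, 103 and 1.85 CPM in depleted and 1019.9, 1055, 939.7 and 1070.2 CPM in control testes. The groups did not overlap, but the gene was not called (log2 fold change -1.83, SE 1.17, adjusted p = 0.194; -2.46 without depleted replicate 1). The RNA-binding protein DAZL had 163, 137, 2.09, 18.2 and 0.265 CPM in depleted and 447, 438, 438 and 467 CPM in control testes (log2 fold change -2.80, SE 1.30, adjusted p = 0.0846; -3.54 without depleted replicate 1). PIWIL1 (ziwi), a piRNA-binding protein, had 956, 1053, 14.95, 119 and 2.25 CPM in depleted testes, against the control values given above (log2 fold change -2.40, SE 1.31, adjusted p = 0.132; -3.05 without depleted replicate 2). Its partner PIWIL2 (zili) had 154, 199, 2.09, 27.8 and 0.132 CPM in depleted and 321, 336, 316 and 368 CPM in control testes (adjusted p = 0.178). The germ granule protein DND1 had 9.95, 9.12, 0.348, 2.21 and 0 CPM in depleted and 18.1, 18.5, 24.8 and 23.3 CPM in control testes (adjusted p = 0.0678). In all 5 genes depleted replicate 5 was lowest, at 0 to 2.25 CPM.

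The 5 members that passed the test, named after their values were seen, were gtsf1, tdrd12, buc, TDRD9 and tdrkh. gtsf1, a piRNA pathway factor, had 38.7, 99.0, 12.9, 8.08 and 0 CPM in depleted and 235, 284, 259 and 285 CPM in control testes (log2 fold change -3.07, SE 1.15, adjusted p = 0.0426; -4.15 without depleted replicate 2), and its call was lost without any single control or without depleted replicate 1, 3 or 4. The falls of the others were -2.77 for tdrd12 (-3.52 without depleted replicate 2), -2.31 for buc, -2.09 for TDRD9 and -1.90 for tdrkh, and those of tdrd12 and TDRD9 were not called without any single control or without depleted replicate 3 or 4. The count of falling members changed when single libraries were left out. It was 13 without depleted replicate 2, where 6696 of 20189 genes tested fell. Without control replicates 1, 3, 4 and 5 it was 3, 2, 2 and 2. Over all genes tested, 4961, 4724, 4743 and 4767 fell in those fits, in place of 5858. Without depleted replicate 3 or 4 it was 2. The count was 16 in DESeq2 and 19 in limma-voom with library quality weights, which compares means of log values. Over all 20372 genes tested, DESeq2 called 7253 lower and limma-voom 7129. Without depleted replicates 1, 2 and 4 the count of falling members was 19, with a median of -6.19, where 7430 of 21438 genes tested fell. That fit kept depleted replicates 3 and 5, the depleted libraries with the lowest summed CPM of this list.

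Of 25 tested meiotic genes 13 fell (28.8% of all genes tested fell), 0 rose and 12 were not called, at a median log2 fold change of -2.62. In every depleted library 24 of them lay below all controls, where 28.6% of all genes tested did so. SYCP1, a transverse filament protein of the synaptonemal complex, had 359.8, 989, 52.7, 24.6 and 12.7 CPM in depleted and 2492, 2640.2, 2079 and 2289 CPM in control testes. It was among the 5 genes with the largest loss of CPM (log2 fold change -3.04, SE 1.13, adjusted p = 0.0411), but its call was lost without any single control and without depleted replicate 1, 3 or 4, and the value was -4.40 without depleted replicate 2. SYCP3, of the axial elements, had 101, 190.2, 2.78, 4.43 and 0.794 CPM in depleted and 421, 377, 379.7 and 389 CPM in control testes (adjusted p = 0.0955). The recombinase DMC1 had 70.2, 152, 0.464, 1.95 and 0 CPM in depleted and 183, 319.9, 287 and 226 CPM in control testes (adjusted p = 0.176).

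The largest called fall of the meiosis list was cyclin A1 (CCNA1), with 6.18, 20.7, 1.04, 0.912 and 0.529 CPM in depleted and 76.9, 74.3, 82.6 and 58.1 CPM in control testes (log2 fold change -3.64, SE 0.97, adjusted p = 0.0102; -5.04 without depleted replicate 2). spo11, which makes the meiotic double-strand breaks, had 15.7, 39.2, 2.202, 4.04 and 0.926 CPM in depleted and 87.7, 82.2, 74.9 and 72.1 CPM in control testes (log2 fold change -2.68, SE 0.90, adjusted p = 0.0277; -3.78 without depleted replicate 2), and its call was lost without control replicate 1, 3 or 4 and without depleted replicate 4. The count of falling members was 21 without depleted replicate 2, where 6696 of 20189 genes tested fell. It was 8 without control replicate 4 or 5, where 4743 and 4767 genes fell. The list's median without depleted replicate 2 was -3.75. DESeq2 called 22 members lower and limma-voom 24, where they called 7253 and 7129 of all 20372 genes tested lower.

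The listed genes of spermatogonia that could be matched did not move together. Of 20 listed symbols 6 had no match (nanos2, gfra1a, gfra1b, sohlh1, sohlh2 and ccnd1), so the list does not cover these genes. Of 13 tested members, 3 rose, 3 fell and 7 were not called, where 32.4% of all genes tested rose and 28.8% fell, with a median log2 fold change of -0.01. The list's summed CPM was nevertheless lower in every depleted library, at 214, 197, 119, 140 and 235. Control libraries held 520, 518, 506 and 488 CPM, of which E2F5 made up the largest part. E2F5, a cell-cycle transcription factor, fell, with 71.6, 84.3, 11.4, 8.99 and 12.4 CPM in depleted and 357, 353, 335 and 323 CPM in control testes (log2 fold change -3.18, SE 0.72, adjusted p = 0.00483). The zinc finger factor SALL4 (-2.69; -3.42 without depleted replicate 1) and the TFIID subunit taf4b (-2.61; -3.33 without depleted replicate 2) also fell, and the call of SALL4 was lost without any single control or depleted replicate 4. The receptor KIT (2.22) and 1 of 2 CCND2 identifiers (ENSDARG00000051748, 2.95), a cyclin that other cell types use too, rose. So did zbtb16b (0.78), whose call was lost without any single control and without depleted replicate 1, 2 or 4. ZBTB16, a factor of undifferentiated spermatogonia in mammals, had 2.29, 4.36, 2.78, 4.95 and 8.60 CPM in depleted and 3.54, 3.23, 2.15 and 2.31 CPM in control testes, and the groups overlapped (adjusted p = 0.158).

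**Figure D3:**
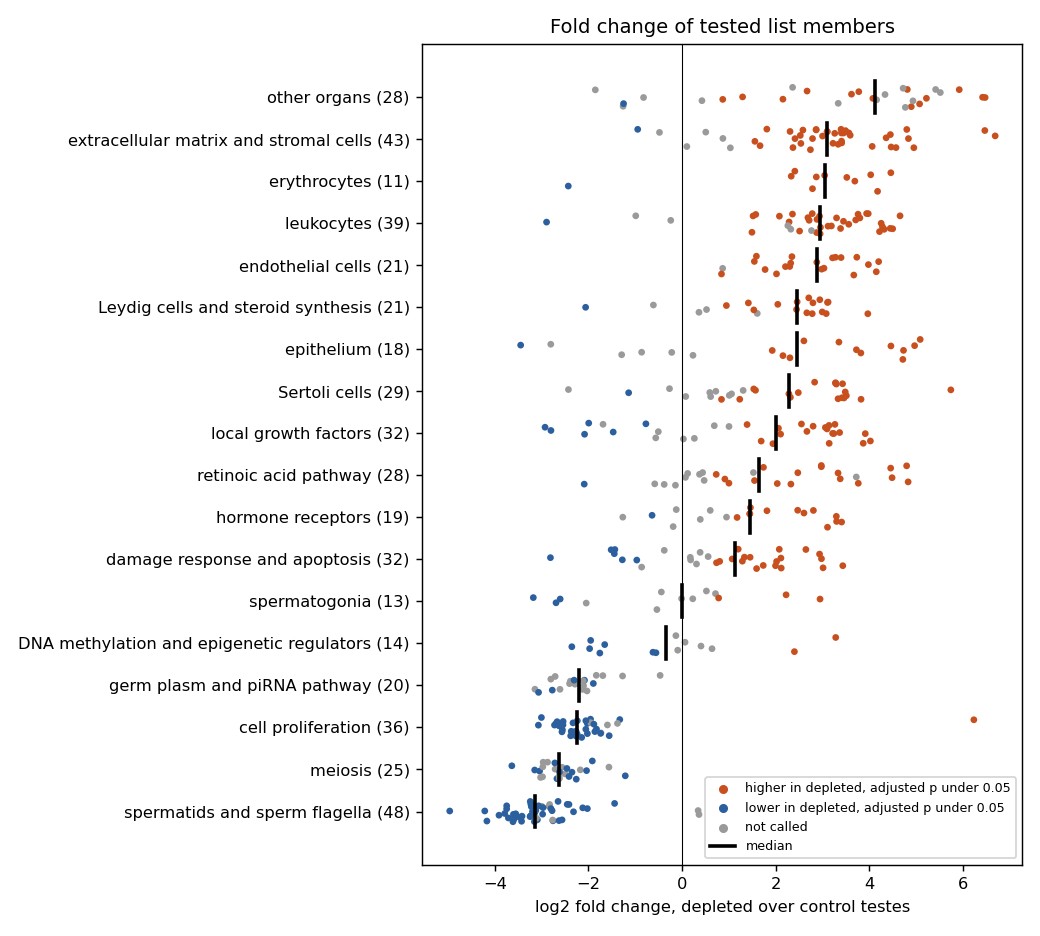
Log2 fold change, depleted over control testes, of each tested member of 18 gene lists, with the number of tested members in parentheses. Orange points are called higher, blue points called lower and grey points not called; the bar is the list's median, -3.13 for spermatids and sperm flagella and 3.10 for extracellular matrix and stromal cells.

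The spermatid and sperm flagellum list had the lowest median of the 18 lists, -3.13. Of 48 tested members, 41 fell, 0 rose and 7 were not called, and 46 lay below all controls in every depleted library, where 28.8% of all genes tested fell and 28.6% lay below in this way. The summed CPM of the list was 1934, 4154, 821, 651 and 883 in depleted and 12011, 11322, 10765 and 9596 in control libraries. ROPN1L, a protein of the sperm fibrous sheath and radial spokes in mammals, had 20.8, 89.2, 6.49, 1.30 and 1.46 CPM in depleted and 267, 325, 293 and 237 CPM in control testes (log2 fold change -3.55, SE 1.13, adjusted p = 0.022; -5.21 without depleted replicate 2). The outer dynein arm chain dnai2b had a log2 fold change of -4.22 and the inner-arm heavy chain DNAH7 one of -3.75, which were -5.15 and -4.73 without depleted replicate 2. The central-pair protein hydin had -3.71 and the sperm membrane protein spaca6 -4.17, which were -4.91 and -5.22 without depleted replicate 2.

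The uncalled members included GAPDHS and cimap1b, the only listed members with a fold change above 0. GAPDHS, in mammals the sperm form of a glycolytic enzyme, had 543, 448, 354, 411 and 649 CPM in depleted and 414, 353, 388 and 362 CPM in control testes, so the groups overlapped, and its log2 fold change was 0.34 with TMM and -0.02 with total counts. cimap1b had 2.63, 0.681, 0, 4.30 and 0 CPM in depleted and 0.707, 1.41, 1.34 and 1.252 CPM in control testes, and its direction differed between settings (log2 fold change 0.36; -0.47 without depleted replicate 4). Gene families of cilia and flagella, which share members with this list, fell as well, where 28.8% of all genes tested fell. All 13 tested intraflagellar transport (ift) genes, which carry cargo along cilia, fell, with a median of -2.42. Of 30 tested cfap genes 25 fell and 0 rose (median -3.15), and of 10 tested axonemal dynein heavy chains 8 fell and 0 rose (median -3.33).

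These counts also changed when single libraries were left out. Over all genes tested, 5858 fell with all libraries and 4724 to 4961 without any single control. The cfap count was 14, 12, 14 and 15 without control replicates 1, 3, 4 and 5, 13 without depleted replicate 1 and 12 without depleted replicate 3. The dynein count was 5 without control replicate 1 or 3 or without depleted replicate 3. Without depleted replicate 2 the medians were -4.36 for spermatids and flagella, -4.55 for cfap genes and -4.28 for dyneins.

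Genes of the cell cycle were lower in depleted testes. Of 36 tested members of the proliferation list 31 fell, 1 rose and 4 were not called, with a median of -2.24 (-2.86 without depleted replicate 2), and 33 lay below all controls in every depleted library, against the same 28.8% and 28.6% of all genes tested. The proliferation antigen mki67 had 297, 264, 49.1, 49.5 and 93.3 CPM in depleted and 780.0, 729, 671 and 669.7 CPM in control testes (log2 fold change -2.24, SE 0.57, adjusted p = 0.00833). The replication clamp PCNA had 191, 174, 69.5, 69.1 and 174 CPM in depleted and 312, 362, 332 and 358 CPM in control testes (log2 fold change -1.33, SE 0.34, adjusted p = 0.00886). In depleted replicate 5 PCNA was as high as in replicate 2, whereas DMC1 was at 0 there.

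TOP2A, the topoisomerase of dividing cells, averaged 101 ± 90.0 CPM in depleted testes and 590.3 ± 40.9 CPM in control testes (SD, n = 5 and n = 4), a log2 fold change of -2.54. CCNB1, the mitotic cyclin, averaged 53.3 ± 54.7 CPM in depleted testes and 236 ± 13.3 CPM in control testes (SD, n = 5 and n = 4) (log2 fold change -2.15; -2.88 without depleted replicate 2). The largest fall was CCNA2, with 31.9, 71.6, 8.23, 4.95 and 6.09 CPM in depleted and 217, 245, 186 and 177 CPM in control testes (log2 fold change -3.07, SE 0.78, adjusted p = 0.00842; -4.003 without depleted replicate 2). The 1 rise was an RRM2 identifier (ENSDARG00000078069) with 10.5, 0, 3.48, 1.95 and 3.18 CPM in depleted and 0.101, 0, 0 and 0.0537 CPM in control testes. Without depleted replicate 1, 3, 4 or 5 its counts were too low to be tested, and the other RRM2 identifier fell, with a log2 fold change of -2.63 (-3.23 without depleted replicate 2).

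Sertoli cell genes were mostly higher in depleted testes, but not all of them. Of 29 tested members 19 rose, 1 fell and 9 were not called, where 32.4% of all genes tested rose and 28.8% fell. The median log2 fold change was 2.28. The list's summed CPM was 9023, 11826, 15033, 14339 and 11057 in depleted and 2953, 2419, 2762 and 3149 in control libraries. SOX9 (ENSDARG00000003293), a transcription factor of Sertoli cells, had 90.1, 111, 165, 185 and 78.9 CPM in depleted and 14.8, 3.84, 6.83 and 9.97 CPM in control testes (log2 fold change 3.83, SE 0.46, adjusted p = 0.000321). FSHR, the receptor of follicle-stimulating hormone, had 150.4, 86.5, 246, 237 and 18.8 CPM in depleted and 18.1, 11.5, 14.6 and 15.9 CPM in control testes (log2 fold change 3.30, SE 0.66, adjusted p = 0.00269). Its depleted replicate 5 lay just above the controls, while the other 4 depleted libraries were several times higher. gsdf, a growth factor of gonadal somatic cells in fish, had 877, 2339, 2066, 2944 and 1542 CPM in depleted and 637, 556, 778 and 729.7 CPM in control testes (log2 fold change 1.53, SE 0.34, adjusted p = 0.00445).

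The anti-Müllerian hormone gene amh, made by Sertoli cells, had 339.6, 808, 739, 559 and 252 CPM in depleted testes, against the control values given above. The groups overlapped and the gene was not called (log2 fold change 0.61, SE 0.40, adjusted p = 0.205). DMRT1, a transcription factor of Sertoli cells and germ cells, had 374, 683, 455, 464 and 692 CPM in depleted and 454, 518, 538 and 511 CPM in control testes. Its difference was smaller than the spread of the depleted libraries, and its sign changed with the scaling (log2 fold change 0.08, SE 0.22, adjusted p = 0.767 with TMM and -0.31 with total counts). The second SOX9 identifier (ENSDARG00000043923) was not called at a log2 fold change of 1.01 (adjusted p = 0.0695). The 1 fall was INHBB, an inhibin and activin beta subunit, with 14.4, 25.2, 8.69, 15.5 and 6.62 CPM in depleted and 25.8, 31.3, 33.9 and 33.2 CPM in control testes (log2 fold change -1.14, SE 0.35, adjusted p = 0.0198).

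Genes of Leydig cells and steroid synthesis were also mostly higher. Of 21 tested members 16 rose, 1 fell and 4 were not called, where 32.4% of all genes tested rose and 28.8% fell. The median log2 fold change was 2.46. Of the tested members 8 lay above all controls in all 5 depleted libraries, as did 26.2% of all genes tested. The median difference from the control mean was 1.62, 2.40, 2.50, 2.79 and 0.50 in depleted replicates 1 to 5 on the log2 CPM scale, so replicate 5 lay lowest. STAR, which carries cholesterol into mitochondria, had 1364, 1769, 1801, 1508 and 211 CPM in depleted and 262, 108, 154 and 289.5 CPM in control testes (log2 fold change 2.71, SE 0.60, adjusted p = 0.0044). Its depleted replicate 5 lay inside the control range. CYP17A1, an enzyme of androgen synthesis, had 456, 1397, 758, 979.5 and 341 CPM in depleted and 98.7, 92.0, 76.2 and 127 CPM in control testes (log2 fold change 2.997, SE 0.44, adjusted p = 0.000642).

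cyp11c1, which takes part in making 11-ketotestosterone, had 164, 701, 672, 806 and 43.8 CPM in depleted and 86.4, 41.8, 64.5 and 84.8 CPM in control testes (log2 fold change 2.78, SE 0.77, adjusted p = 0.0122). In this gene too, depleted replicate 5 lay within the control range. hsd3b1 had the largest rise of the list, with 195, 523, 373, 615 and 55.4 CPM in depleted and 19.3, 19.8, 17.8 and 32.8 CPM in control testes (log2 fold change 3.97, SE 0.67, adjusted p = 0.00116). lhcgr, the receptor of luteinizing hormone, had 24.2, 18.1, 57.6, 39.5 and 28.1 CPM in depleted and 6.06, 2.02, 2.005 and 5.33 CPM in control testes (log2 fold change 3.11, SE 0.49, adjusted p = 0.000895). insl3, a peptide hormone of Leydig cells, had 2344, 8872, 1641, 6218 and 356 CPM in depleted testes, against the control values given above (log2 fold change 2.67, SE 0.80, adjusted p = 0.0175). Its depleted replicate 5 lay below every control library. Its call was lost without control replicate 3 (adjusted p = 0.0519), and without depleted replicates 1, 2 and 4 its log2 fold change was 0.69 (edgeR adjusted p = 0.303). The 1 fall was hsd17b1, at 0.132 to 2.996 CPM in depleted libraries and 2.97 to 6.76 CPM in control libraries (log2 fold change -2.06; -2.80 without depleted replicate 2), and its call was lost without control replicate 1 or 3 or depleted replicate 3 or 4.

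In the retinoic acid pathway, the enzyme ALDH1A2 that makes the signal and the enzyme CYP26B1 that degrades it were both higher. Of 28 tested members 17 rose, 1 fell and 10 were not called, where 32.4% of all genes tested rose and 28.8% fell. The median log2 fold change was 1.64. ALDH1A2 had 2729.9, 3247, 4655, 4139.7 and 2469 CPM in depleted and 496, 260.4, 220.4 and 391 CPM in control testes (log2 fold change 3.33, SE 0.35, adjusted p = 0.000232). CYP26B1 had 67.7, 46.2, 151, 129 and 60.2 CPM in depleted and 4.24, 2.12, 2.97 and 6.58 CPM in control testes (log2 fold change 4.49, SE 0.51, adjusted p = 0.000285). The groups were well apart in both genes. CYP26A1, a second degrading enzyme, had 86.2, 45.5, 187, 83.9 and 49.8 CPM in depleted and 67.9, 44.7, 45.5 and 103 CPM in control testes, with overlapping groups (adjusted p = 0.371).

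The retinol side of the pathway held 2 identifiers each of the dehydrogenase RDH10 and of the retinal reductase DHRS3. RDH10 rose by 3.77 (ENSDARG00000058730) and by 0.73 (ENSDARG00000012369), the smaller of which was not called with total counts (adjusted p = 0.0713). DHRS3 ENSDARG00000044982 had 113, 61.4, 178, 152 and 232 CPM in depleted and 5.35, 4.54, 4.53 and 6.62 CPM in control testes (log2 fold change 4.80, SE 0.42, adjusted p = 0.000186). DHRS3 ENSDARG00000044803 rose by 2.98 (2.28 without depleted replicate 5). The receptor raraa rose, at 6.13 to 23.0 CPM in depleted libraries and 1.51 to 3.86 CPM in control libraries (log2 fold change 2.33). The largest rise was the binding protein CRABP2 (ENSDARG00000030449), with 5.95, 8.99, 52.97, 17.5 and 131 CPM in depleted and 1.41, 0.807, 1.56 and 2.09 CPM in control testes (log2 fold change 4.83; 3.84 without depleted replicate 5). STRA6, the vitamin A transporter, was the 1 fall (log2 fold change -2.09, SE 0.77, adjusted p = 0.0403), and its call was lost without any single control and without depleted replicate 1 or 4.

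Most of the hormone receptor genes were higher in depleted testes. Of 19 tested members 12 rose, 1 fell and 6 were not called, where 32.4% of all genes tested rose and 28.8% fell. The list's median was 1.45. The largest rise was an estrogen receptor beta, ESR2 (ENSDARG00000016454), with 65.4, 26.3, 109, 99.8 and 66.0 CPM in depleted and 7.48, 6.46, 5.20 and 8.32 CPM in control testes (log2 fold change 3.41, SE 0.41, adjusted p = 0.000329). The progesterone receptor PGR rose by 3.30 and the glucocorticoid receptor NR3C1 by 1.18. The 1 fall was IGF1R (ENSDARG00000034434), at 15.2 to 31.4 CPM in depleted libraries and 32.9 to 43.1 CPM in control libraries (log2 fold change -0.64). This call was lost without control replicate 1 or 4.

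Local growth factors rose and fell by member. Of 32 tested members 19 rose, 6 fell and 7 were not called, with a median of 2.001, where 32.4% of all genes tested rose and 28.8% fell. igf3, a gonadal insulin-like growth factor of fish, had 15.4, 39.9, 48.0, 153 and 2.65 CPM in depleted and 4.65, 1.72, 6.83 and 8.77 CPM in control testes (log2 fold change 3.22, SE 1.01, adjusted p = 0.0209). Depleted replicate 4 was highest and replicate 5 lay within the control range. The value was 2.27 without depleted replicate 4, and the call was lost without control replicate 1 or 3. igf2b had 136, 63.7, 237, 211 and 224 CPM in depleted and 11.3, 9.28, 9.13 and 13.0 CPM in control testes, far apart (log2 fold change 4.03, SE 0.41, adjusted p = 0.000224). The chemokine CXCL12, which guides germ cells in the embryo, rose by 3.25 (4.17 without control replicate 1) and the kit ligand kitlga by 3.15. The falls were BMP8A, 1 SHH identifier, bmp15, 1 FGF8 identifier, jag1a and WNT4, of log2 fold changes between -2.93 and -0.77. SHH was at -3.72 and bmp15 at -2.72 without depleted replicate 2, and FGF8 at -2.68 without depleted replicate 1. BMP8A, a growth factor of germ cells in mice, had 2.17, 4.90, 0.232, 0.521 and 0.529 CPM in depleted and 13.2, 16.9, 12.9 and 7.94 CPM in control testes (-3.85 without depleted replicate 2). The calls of bmp15, FGF8 and WNT4 were lost without any single control. The count of 6 falls was 3 without control replicate 1 or depleted replicate 4 and 2 without control replicate 3, 4 or 5.

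Of 32 tested genes of the damage response and apoptosis 19 rose, 6 fell and 7 were not called, with a median of 1.14, where 32.4% of all genes tested rose and 28.8% fell. Cyclin G1 (CCNG1), a damage-response gene, had 593, 942, 846, 983 and 1543 CPM in depleted and 128, 108, 112 and 137 CPM in control testes (log2 fold change 3.01, SE 0.29, adjusted p = 0.000209). The cell-cycle inhibitor cdkn1a (p21) had 20.9, 17.2, 32.8, 17.7 and 30.6 CPM in depleted and 10.7, 6.26, 10.8 and 11.1 CPM in control testes (log2 fold change 1.29, SE 0.28, adjusted p = 0.00427). PHLDA3 had the largest rise (3.44). mdm2, a ubiquitin ligase, fell, with 98.4, 201, 95.4, 69.4 and 109.6 CPM in depleted and 286, 293, 284 and 248 CPM in control testes (log2 fold change -1.28, SE 0.29, adjusted p = 0.0047). TP73, a transcription factor, fell most (-2.81; -3.63 without depleted replicate 2), followed by BCL2L1 (-1.52), XPC (-1.45), sesn2 (-1.44) and APAF1 (-0.97).

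Genes of the extracellular matrix and of stromal cells were broadly higher in depleted testes. Of 43 tested members 37 rose, 1 fell and 5 were not called, at a median log2 fold change of 3.10, and 36 lay above all controls in every depleted library, where 32.4% of all genes tested rose and 26.2% lay above in this way. The summed CPM was 14993, 10585, 28350.3, 24889 and 35479 in depleted and 2630.3, 1605, 1854 and 2604 in control libraries. The collagen I gene COL1A2 had 468, 426, 1206, 1155 and 3178 CPM in depleted and 63.5, 28.7, 31.9 and 55.5 CPM in control testes (log2 fold change 4.84, SE 0.71, adjusted p = 0.000662; 4.197 without depleted replicate 5). The collagen I genes col1a1a and COL1A1 rose by 4.47 (3.86 without depleted replicate 5) and 2.31. The second fibronectin identifier (FN1, ENSDARG00000006526) had 3396, 1289.8, 8544, 5347 and 4642 CPM in depleted and 376, 86.0, 114 and 272 CPM in control testes (log2 fold change 4.45, SE 0.69, adjusted p = 0.000809).

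Decorin (DCN), a small proteoglycan, averaged 911 ± 667 CPM in depleted testes and 38.2 ± 13.99 CPM in control testes (SD, n = 5 and n = 4), a log2 fold change of 4.57. PDGFRA, a receptor of mesenchymal cells, rose by 4.36, and acta2, the smooth muscle actin of vessels and peritubular cells, rose by 3.10. The matrix metalloproteinase MMP2 rose by 3.49, while MMP9 had 54.6, 19.2, 21.8, 10.3 and 77.4 CPM in depleted and 55.3, 48.8, 52.4 and 48.3 CPM in control testes and was not called (adjusted p = 0.428). The 1 fall was thrombospondin THBS1 (-0.95), whose call was lost without control replicate 1 or 5 or depleted replicate 1 or 3. Collagens as a symbol family were mixed: of 43 tested, 21 rose and 7 fell, where 32.4% of all genes tested rose and 28.8% fell. Their median was 1.40. The 7 falls were 3 or 4 without any single control and 3 without depleted replicate 4.

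Endothelial genes rose in 20 of 21 tested members and 0 fell, where 32.4% of all genes tested rose and 28.8% fell. Their median was 2.88. cdh5, the cadherin of vessel junctions, had 39.3, 20.3, 65.3, 68.0 and 43.8 CPM in depleted and 6.26, 3.33, 1.63 and 3.08 CPM in control testes (log2 fold change 3.74, SE 0.49, adjusted p = 0.000433). The receptor TIE1 had the largest rise, 4.203. Set beside the same shares, 12 of 18 tested epithelial genes rose, 1 fell and 5 were not called, with a median of 2.46. The keratin krt8 had 5542, 4164, 6548, 8263 and 8131 CPM in depleted and 535, 413, 368 and 656 CPM in control testes (log2 fold change 3.73, SE 0.33, adjusted p = 0.000188), and the keratins krt4 and krt18b rose by 3.82 and 5.09. Of 12 tested keratins 8 rose and 1 fell, with a median of 3.61 that was 3.06 without depleted replicate 2, where 3 fell, and 1.06 without depleted replicates 1, 2 and 4. epcam, an adhesion molecule of epithelia, rose by 1.93. ESRP1, an epithelial splicing factor that the controls also varied in, fell, with 1.49, 1.36, 1.28, 1.30 and 0.397 CPM in depleted and 21.5, 14.5, 11.95 and 3.58 CPM in control testes (log2 fold change -3.45, SE 0.54, adjusted p = 0.000853).

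Where 32.4% of all genes tested rose and 28.8% fell, leukocyte genes rose in 33 of 39 tested members, with 1 fall. A further 5 were not called, and the list's median was 2.95. The summed CPM was 12975, 12393, 14264, 12406 and 15843 in depleted and 2388, 1534, 1645 and 1868 in control libraries, and the depleted libraries varied less here than for germ line genes. ptprc (CD45), the phosphatase of all leukocytes, had 109, 72.3, 102, 87.2 and 180.1 CPM in depleted and 23.8, 11.5, 10.1 and 14.6 CPM in control testes (log2 fold change 2.88, SE 0.36, adjusted p = 0.000366). The invariant chain cd74a of antigen-presenting cells had 1368, 2135, 1525, 1395 and 2162 CPM in depleted and 355, 201, 177 and 197 CPM in control testes (log2 fold change 2.88, SE 0.30, adjusted p = 0.000233). The actin-bundling LCP1 rose by 3.71 and the coronin CORO1A by 2.29. The largest rise was havcr1 (4.66). Of 22 tested chemokine genes (symbols in ccl and cxcl) 16 rose and 0 fell (median 2.61), and of 12 tested cathepsins, proteases of the lysosome, 9 rose and 0 fell (median 2.44). RAG2, the recombinase of developing lymphocytes, was the 1 fall, with 29.5, 62.4, 5.91, 1.69 and 0.794 CPM in depleted and 119, 135, 183 and 160.1 CPM in control testes (log2 fold change -2.90, SE 1.05, adjusted p = 0.037; -3.96 without depleted replicate 2). This call was lost without any single control and without depleted replicate 1, 3 or 4.

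Erythrocyte genes rose in 10 of 11 tested members, with 1 fall, where 32.4% of all genes tested rose and 28.8% fell. The list's median was 3.05 (2.24 without depleted replicate 5). The globin hbaa1 had 782, 685, 355, 1785 and 1624 CPM in depleted and 135, 8.07, 9.95 and 102 CPM in control testes (log2 fold change 4.03, SE 0.99, adjusted p = 0.0072; 4.69 without control replicate 1). The heme enzyme alas2 had 122, 54.3, 68.7, 339 and 409 CPM in depleted and 13.6, 1.72, 2.08 and 18.3 CPM in control testes (log2 fold change 4.46, SE 1.002, adjusted p = 0.00469; 5.09 without control replicate 5). Control replicates 1 and 5 held more of both than control replicates 3 and 4, and the count of rises was 6 without control replicate 3. The fall was 1 of 2 SLC4A1 identifiers (ENSDARG00000024560, log2 fold change -2.43; -3.17 without depleted replicate 1), while the other rose by 2.87 (2.05 without depleted replicate 5).

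The rises of somatic, vascular and blood lists and the falls of germ line lists were found in the same libraries, and the part of either in the other was not tested. Without depleted replicates 1, 2 and 4, which held the most liver or pancreas transcripts, the median was 2.202 for Sertoli cells, 3.53 for matrix and stroma, 3.25 for leukocytes and 1.76 for Leydig cells. In that fit 20, 37, 33 and 14 of their 29, 43, 47 and 24 listed identifiers rose, where 6922 of 21438 genes tested rose. It compared depleted replicates 3 and 5 with the controls.

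Genes that mark other organs had the highest median of the 18 lists, 4.12. Of 28 tested members 14 rose, 1 fell and 13 were not called, where 32.4% of all genes tested rose and 28.8% fell. The fall was the glial filament GFAP (-1.25), whose call was lost without control replicate 3, 4 or 5 and without depleted replicate 1, 3, 4 or 5. In several rises 1 or 2 libraries carried the difference. The chymotrypsinogen gene ctrb.1 had 68.4, 2383, 11.01, 66.4 and 3.31 CPM in depleted and 8.08, 0.101, 0.0743 and 14.1 CPM in control testes (log2 fold change 6.48; 2.70 without depleted replicate 2 and 7.52 without control replicate 5). Without depleted replicates 1, 2 and 4 its value was 0.32, and its call was lost in that fit and without any single control. Plasma proteins outside the list did the same. The plasma protein gene fetub had 481, 2.86, 3.59, 2622 and 4.37 CPM in depleted and 6.57, 1.82, 18.8 and 19.0 CPM in control testes (log2 fold change 5.75; 3.42 without depleted replicate 4). The protease inhibitor serpina1 had 116, 0.681, 0.580, 876 and 1.06 CPM in depleted and 1.62, 0.303, 4.31 and 2.70 CPM in control testes (log2 fold change 6.45; 3.72 without depleted replicate 4). Outside depleted replicates 1 and 4 both lay within the control range, and their calls were lost without any single control.

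The count of 14 rises was 9, 7, 7 and 8 without control replicates 1, 3, 4 and 5. The median was 2.53 without depleted replicate 2, 2.63 without depleted replicate 4 and -0.77 without depleted replicates 1, 2 and 4, where 12 members fell. Over all genes tested in that last fit, 7430 of 21438 fell. In complement and apolipoprotein genes, most of which the liver makes, the summed level and the median member gave different orders of the depleted libraries. Complement genes rose in 11 of 20 tested members, where 32.4% of all genes tested rose, with a median of 3.71. Their median difference from the control mean was, however, 3.50, -0.16, -0.01, 4.17 and 0.25 in depleted replicates 1 to 5. Apolipoproteins had a median of 4.26 with 3 of 12 called, all higher, and differences of 3.72, 0.63, -1.30, 5.92 and -1.77. The summed CPM of complement genes was 2788, 1158, 3169, 7005 and 4946 in depleted and 557, 278, 429 and 429.9 in control libraries, and that of apolipoproteins 5731, 3994, 4944, 14247 and 873 in depleted and 253, 235, 379 and 537 in control libraries, so all 5 depleted libraries lay above the controls in both sums. Both medians were below 0 without depleted replicates 1, 2 and 4, at -0.56 and -2.43. Without depleted replicate 4 alone they were 2.25 and 2.51.

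Transcripts of the cytosolic ribosome took a larger part of depleted libraries. Of 69 tested ribosomal protein genes 68 rose and 0 fell, at a median log2 fold change of 2.06, and 67 lay above all controls in every depleted library, against 32.4% and 26.2% of all genes tested. Together they held 6.98% to 12.8% of the counts in depleted and 2.71% to 3.54% in control libraries. All 13 tested protein-coding genes of the mitochondrial genome rose, with a median of 1.72, and held 4.97% to 6.40% of the counts in depleted and 1.77% to 2.48% in control libraries. MT-CO1, a subunit of cytochrome oxidase, had 17527, 22688, 20472, 26450.3 and 21112 CPM in depleted and 6543, 6187, 6683 and 7087 CPM in control testes (log2 fold change 1.71, SE 0.24, adjusted p = 0.000523). Most members of 2 families of nuclear genes for mitochondrial proteins were not called, where 32.4% of all genes tested rose and 28.8% fell. Of 63 tested mitochondrial ribosomal proteins 10 rose and 6 fell, with a median of 0.03 that was -0.35 with total counts and -0.09 with DESeq2 size factors. Its counts changed between fits that left out 1 library, with 5 rises without control replicate 4 and 3 to 13 falls across these fits. Of 43 tested NADH dehydrogenase subunits and assembly factors 6 rose and 5 fell (median -0.07; 8 falls without depleted replicate 2).

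The largest gains in CPM, a scale that does not correct for transcript length, were MT-CO1, actb2, MT-CO3, MT-CO2 and eef1a1l1. The cytoplasmic actin actb2 had 7039, 8336, 13510.4, 14578 and 18011 CPM in depleted and 1947, 1088, 1246 and 1745 CPM in control testes (log2 fold change 3.03, SE 0.38, adjusted p = 0.000362). The elongation factor eef1a1l1 averaged 9702 ± 3179 CPM in depleted testes and 2408 ± 232 CPM in control testes (SD, n = 5 and n = 4). The 5 largest losses in CPM included SYCP1, zgc:55461, PCM1 and si:ch211-222l21.1. PCM1, a protein of centriolar satellites, had 479, 706, 148, 144 and 96.6 CPM in depleted and 1949, 1685, 1683 and 1627 CPM in control testes (log2 fold change -2.46, SE 0.58, adjusted p = 0.00584).

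Most called genes separated the groups in every library. Of all genes tested, 10550 (51.8%) were called and did not overlap between groups. All 5 depleted libraries lay above all controls in 79.5% of the called rises, and all 5 lay below all controls in 90.6% of the called falls. In a further 18.1% of rises and 7.89% of falls 4 of 5 depleted libraries did so. Over all genes tested, all 5 lay above all controls in 26.2% and below them in 28.6%. The calls were made on these same libraries, so the separation of called genes largely follows from the test. Where a single depleted library broke the separation, it was most often replicate 2, in 746 rises and 291 falls. Depleted replicate 2 had the smallest shift from the control mean in 56.3% of rises and 65.7% of falls, and replicate 1 in 22.2% and 20.3%. Depleted replicate 5 had the largest shift in 41.9% of rises and 37.1% of falls.

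**Figure D4:**
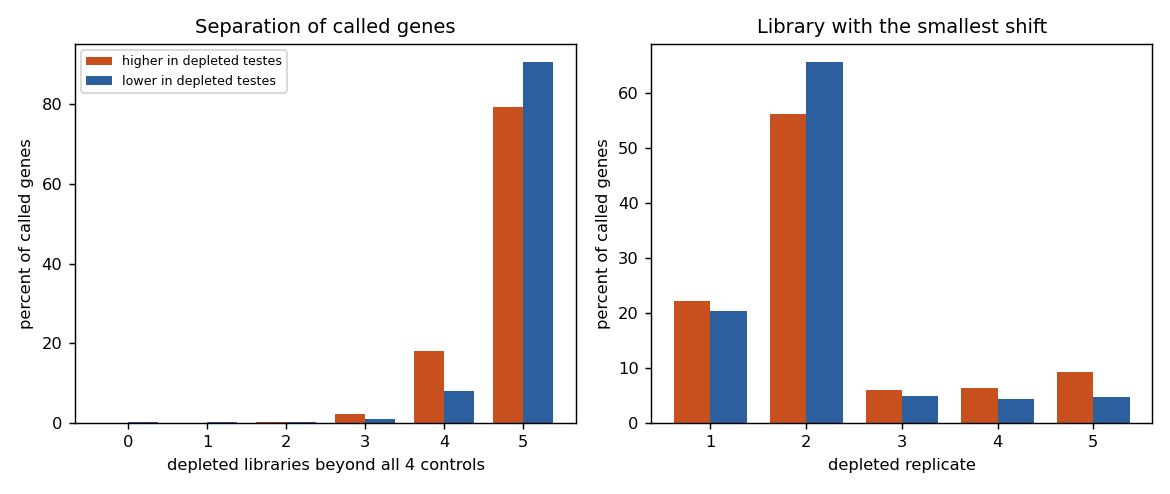
Left, percent of called genes by the number of depleted libraries that lie beyond all 4 controls in the direction of the call. Right, percent of called genes in which each depleted replicate has the smallest shift from the control mean. Orange bars are the 6595 rises and blue bars the 5858 falls; replicate 2 takes 56.3% and 65.7% on the right.

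The spread between depleted libraries differed by gene class. The SD of log2 CPM was larger in depleted than in control testes for 85.6% of the tested genes. Its median was 0.563 in depleted and 0.308 in control testes over the rises, and 0.680 and 0.193 over the falls. The median SD of germ plasm and piRNA genes was 2.79 in depleted and 0.135 in control testes, and that of meiotic genes 2.64 and 0.150. For leukocyte genes it was 0.736 in depleted and 0.485 in control testes, and for Sertoli cell genes 0.727 and 0.426.

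The order of the depleted libraries was similar in the lists of germ plasm, meiosis and spermatids, but not in that of spermatogonia. The median difference from the control mean in log2 CPM was -1.22, -0.997, -5.36, -3.47 and -7.43 in depleted replicates 1 to 5 for germ plasm and piRNA genes. It was -1.86, -1.05, -5.93, -5.20 and -7.36 for meiosis and -2.86, -1.36, -4.77, -6.43 and -6.46 for spermatids and flagella. In all 3 lists replicate 2 was closest to the controls and replicate 5 farthest. For spermatogonia it was -0.07, -0.80, -0.31, -0.05 and 0.28, with replicate 2 farthest below the controls and replicate 5 above them. The summed CPM of that list, given above, was lower in every depleted library than in any control library. E2F5 alone made up the largest part of the control sums, and the list was not summed without it. The list also lacks 6 of its 20 symbols, nanos2 among them. The proliferation list gave -1.56, -0.99, -3.79, -4.04 and -3.77, where replicate 4 was farthest. Sertoli cell genes gave 1.40, 1.77, 2.42, 2.83 and 1.88, with replicate 1 lowest, and leukocyte genes 2.85, 2.30, 2.63, 2.71 and 3.71, with replicate 2 lowest and replicate 5 highest.

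The called genes with the largest SD among depleted libraries were serpina1, fetub and ctrb.3 among rises and gtsf1, lrrc51 and tektl1 among falls. The chymotrypsinogen gene ctrb.3, which could share reads with ctrb.1, had 20.6, 777, 2.32, 24.2 and 0.397 CPM in depleted and 3.23, 0.404, 0.297 and 3.83 CPM in control testes (log2 fold change 6.36, and 2.57 without depleted replicate 2). The leucine-rich repeat gene lrrc51 had 13.6, 45.2, 1.85, 0.261 and 0 CPM in depleted and 154, 169, 132 and 103 CPM in control testes (log2 fold change -3.52; -5.12 without depleted replicate 2). The tektin-like gene tektl1 had 21.0, 107, 11.1, 1.04 and 0.132 CPM in depleted and 267, 305, 263 and 247 CPM in control testes (log2 fold change -3.27; -5.01 without depleted replicate 2). In both falls depleted replicate 2 was highest and every depleted library lay below every control library. The calls of ctrb.3, lrrc51 and tektl1 were each lost without any single control.

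**Figure D5:**
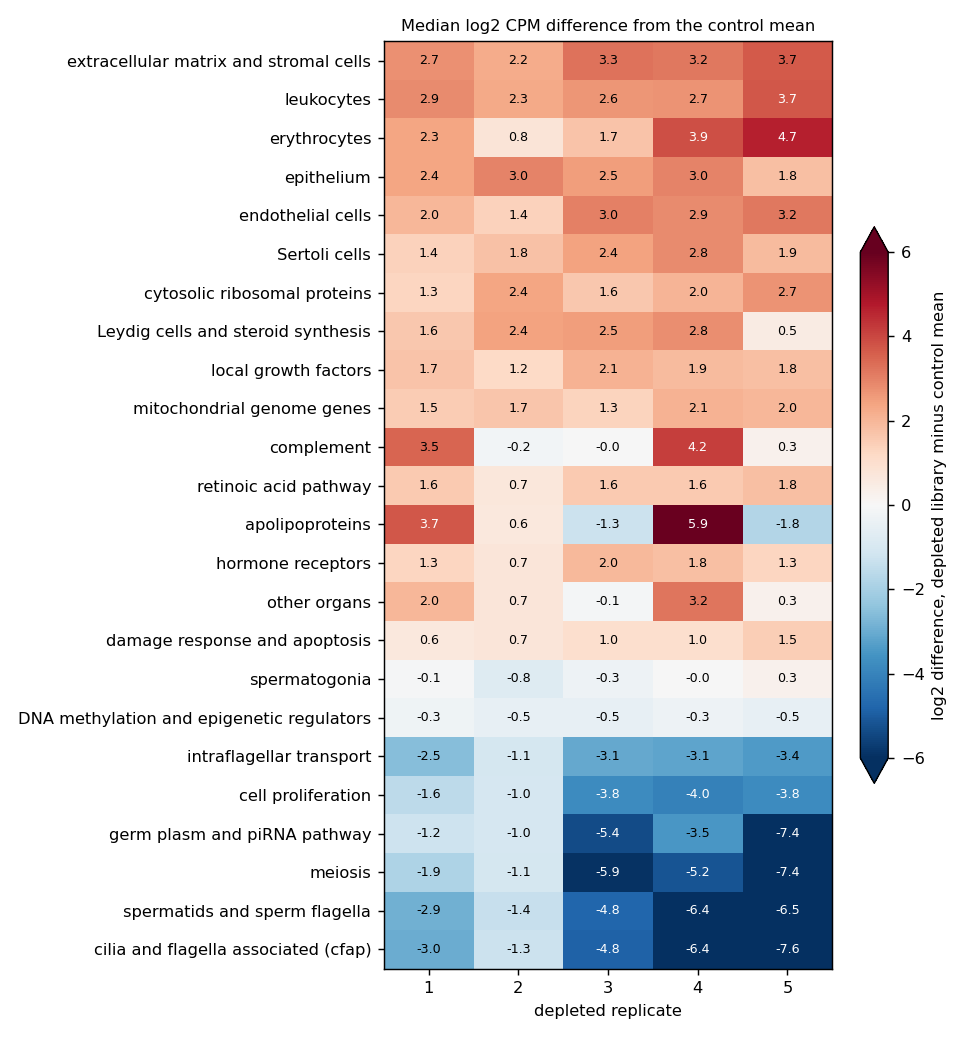
Median log2 CPM difference of each depleted library from the control mean over the tested members of 24 gene lists and families. Red is higher and blue lower in the depleted library, on a scale that ends at 6 in both directions; the meiosis row runs from -1.05 in replicate 2 to -7.36 in replicate 5, while the apolipoprotein row is red in replicates 1 and 4 and at 0.63 or lower in the others.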

How the data were processed

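RNA was extracted with miRNeasy and sequenced from TruSeq v2 libraries, per the labels' protocols. FastQC 0.10.1, TopHat2 2.0.5, SAMtools 0.1.18, HTSeq, DESeq and genome build Zv9 are named, without role or order, per the submitters' processing notes. The deposited values are raw counts per Ensembl gene identifier, 33752 in each file. Whether counting used strand is not given in the sources used here, so reads of overlapping or antisense genes cannot be told apart.

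Depleted and control libraries were grouped by title; a control replicate 2 was not analysed here. Counts were filtered by edgeR's filterByExpr, scaled by TMM and tested with edgeR 4.0.16 (quasi-likelihood, Benjamini-Hochberg over 20372 genes, called at an adjusted p under 0.05) in R 4.3.3. Log2 fold changes are depleted over control. Levels are TMM-scaled CPM, and log2 CPM adds a prior count of 2. The script was tested on simulated data. The design text calls the replicates biological without tying them to separate fish, so p-values measure the spread between these libraries.

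The comparison, its members and the gene lists were chosen with earlier results of these data known. Symbols came from a table that named 21948 identifiers (65.0%), often by the human gene name, so that 1 symbol can cover several identifiers. Of 614 listed symbols 502 matched, giving 518 identifiers in 18 lists, 6 of them in more than 1. Families were set by symbol pattern, and the patterns for complement, proteasome, tubulins, heat shock proteins, keratins and apolipoproteins were corrected after their members were seen. Genes were named by rule: the 12 largest rises and falls with a descriptive symbol, at least 10 CPM in the higher group and no overlap between groups; the 5 largest gains and losses in CPM; fixed anchors and the largest called rise and fall of each list; and the 3 rises and 3 falls with the largest SD among depleted libraries. Some of these genes are not reported here. A further 36 examples were chosen after their values were seen. Alternatives used other scalings, filters, DESeq2 1.42.0, limma 3.58.1 (voom), all 3 groups, a replicate block, a fold threshold, a stricter threshold and fits without 1 library. The fit without depleted replicates 1, 2 and 4 was added after the data were seen.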

Additional observations from a re-analysis of the deposited data

Results flagged for a closer look

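Single libraries stood apart from their group in 37 of 352 sets of depleted or control values examined (total counts, the summed CPM of each list and the CPM of each named or example gene). A library was picked where its gap to the nearest other library of its group took an unusually large part of the group's range. Chance picks about 1 in 20 sets of independent values; many of these genes vary together and some were chosen for their spread among depleted libraries, so the number of sets picked cannot be set against that rate. Depleted replicate 2 was picked in 13 sets and depleted replicate 5 in 11, against 3 in depleted replicate 4, 1 in depleted replicate 3 and 0 in depleted replicate 1.

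Depleted replicate 2 was the highest depleted library for several genes that were lower in depleted than in control testes. It held 107 CPM of tektl1, 89.2 CPM of ROPN1L, 20.7 CPM of CCNA1, 4.09 CPM of TSSK6, 3.68 CPM of NAMPT and 2.04 CPM of GFAP. Among Pim-related kinases it held 3.13 CPM of pimr180, 2.45 CPM of pimr212, 2.18 CPM of pimr185, 1.91 CPM of pimr177 and 1.77 CPM of pimr196. It was also far highest in the pancreatic genes ctrb.1, at 2383 CPM, and ctrb.3, at 777 CPM.

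Depleted replicate 5 was the highest depleted library for several matrix and leukocyte genes, with 3178 CPM of COL1A2, 2655 CPM of FN1 (ENSDARG00000019815), 214 CPM of LUM, 36.1 CPM of angptl2a, 390.4 CPM of CORO1A and 287 CPM of LCP1. It also held the most DHRS3 (ENSDARG00000044803), at 121 CPM, and KIT, at 67.5 CPM. It was also highest for the keratin krt18b, at 1879 CPM, and the lowest depleted library for STAR, at 211 CPM, and ESRP1, at 0.397 CPM. Depleted replicate 4 was highest for the liver genes fetub, at 2622 CPM, and serpina1, at 876 CPM, and for jac2, at 116 CPM. Depleted replicate 3 was highest for CYP26A1, at 187 CPM.

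Among control libraries, replicate 5 had the most counts, 48646941, the most hsd3b1 (32.8 CPM) and LUM (0.877 CPM) and the least pimr212 (8.70 CPM). Control replicate 1 had the most cd74a (355 CPM), MMP2 (118 CPM) and IGF1R (ENSDARG00000034434, 43.1 CPM). Control replicate 3 had the least cdkn1a (6.26 CPM) and the most RRM2 (ENSDARG00000020711, 134 CPM).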

How the results depend on the processing

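Of 12453 called genes, the share called again in the same direction was 82.3% or more in every fit that left out 1 library, in which 10492 (control replicate 4) to 13789 genes (depleted replicate 2) were called, and no gene called in both fits changed direction. DESeq2 called 13806 genes and limma-voom 14331. Against a log2 fold change of 1, 5563 genes changed, 3689 rising and 1874 falling, 5348 of them without overlap, because this test asks for more than a change. At an adjusted p under 0.01, 8006 changed and 3196 fell, by construction. The germ plasm and piRNA list had 5 falls in edgeR, but 16 with all 3 groups and 17 with the replicate block. It had 8 with total counts and 1 against a log2 fold change of 1. Over all genes tested, these fits had 6833, 6200, 7566 and 1874 falls, against 5858 in the main fit. The cause was not tested. Same-numbered depleted and control libraries did not deviate together (correlations -0.0989 to 0.0594 over 4 pairs). No control library correlated best with the depleted library of its own number. The labels do not say whether the numbers pair the samples, and 4 correlations cannot decide it. With no control replicate 2 in the block fit, depleted replicate 2 was alone in its block and added nothing to the group difference. The replicate block fit called 12425 genes, 6225 rising and 6200 falling, 11345 of them shared. Rising Leydig cell genes numbered 10 in place of 16. STAR (edgeR adjusted p = 0.0511), cyp11c1, insl3 and igf3 were among the named genes not called, with 101 of 111 calls kept.

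Directions changed for few results, and the cause was not tested. DMRT1 was near 0 throughout, at -0.041 with DESeq2 size factors and with DESeq2, -0.31 with total counts, -0.075 with limma-voom, -0.061 with the block and -0.021 (depleted replicate 2) to 0.16 (depleted replicate 1) without 1 library (below 0 without depleted replicate 2 or 5). GAPDHS was at -0.023 with total counts. cimap1b was at -1.18 with limma-voom, -0.49 with the block, -7.40 without depleted replicates 1, 2 and 4 and -0.47 to 0.71 without 1 library (lowest without depleted replicate 4). Without depleted replicates 1, 2 and 4, an alternative added after the data were seen, 14352 genes were called and 11676 shared with the 12453. The medians of other organs (-0.77), complement (-0.56) and apolipoproteins (-2.43) and the log2 fold changes of serpina1 (-1.52), fetub (-1.59) and ctrb.3 (-0.55) were then below 0. On the TMM-scaled scale, 3 counts are worth 0.342 to 0.407 CPM in depleted and 0.0535 to 0.302 CPM in control libraries, the limit that a count of 0 allows there, for counting error only.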

Other observations

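Regulators of DNA methylation moved in opposite directions in depleted testes. Of 14 tested members of a list of DNA methylation and chromatin regulators 7 fell, 2 rose and 5 were not called (median -0.34), where 28.8% of all genes tested fell and 32.4% rose. The maintenance methyltransferase DNMT1 had 98.2, 61.7, 31.8, 32.7 and 60.2 CPM in depleted and 183, 177, 168 and 188 CPM in control testes (log2 fold change -1.65, SE 0.33, adjusted p = 0.0025). The de novo methyltransferase dnmt3bb.3 fell by most, at 4.64 to 59.7 CPM in depleted libraries and 118 to 158 CPM in control libraries (log2 fold change -2.36), and the histone methyltransferase EZH2 fell too (-1.98). The 2 rises were the methylcytosine dioxygenases TET2 and tet3. TET2 had 43.8, 23.3, 70.6, 58.0 and 47.6 CPM in depleted and 6.77, 3.43, 4.38 and 5.35 CPM in control testes (log2 fold change 3.28, SE 0.36, adjusted p = 0.000247), and tet3 had 18.2, 5.58, 29.1, 21.0 and 20.4 CPM in depleted and 4.14, 2.83, 3.94 and 3.35 CPM in control testes (log2 fold change 2.40, SE 0.43, adjusted p = 0.00151). The groups did not overlap in either gene.

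Among 105 symbol stems with at least 15 tested genes, the lowest medians after pimr and cfap were those of kif, kinesin motors of spindle and cilium (23 of 34 fell and 5 rose, median -2.08), rad, which holds genes of DNA repair and cohesin (16 of 21 fell and 0 rose, median -2.07), cacna, calcium channel subunits (11 of 20 fell and 3 rose, median -1.95), and cep, centrosomal proteins (25 of 30 fell and 2 rose, median -1.72). The highest medians were those of f, which holds coagulation factors (13 of 17 rose and 1 fell, median 2.68), mhc, antigen-presentation genes (11 of 15 rose and 0 fell, median 2.67), ccl chemokines (10 of 15 rose and 0 fell, median 2.59), ifi, interferon-induced genes (11 of 18 rose and 0 fell, median 2.27), cd, cell-surface antigens (28 of 36 rose and 2 fell, median 2.15), and cyp, cytochromes P450 (22 of 46 rose and 2 fell, median 2.11). The coagulation and cytochrome stems hold genes of the liver, whose transcripts were high in depleted replicates 4 and 1. The cytochrome stem also holds CYP17A1, cyp11c1 and CYP26B1, described above. Without depleted replicates 1, 2 and 4 the medians of the 2 stems were 2.09 and 1.69. In that fit 11 of 18 and 24 of 48 of their genes rose, where 6922 of 21438 genes tested rose. The part of liver transcripts in these rises was not tested. Over all genes tested 32.4% rose and 28.8% fell, the shares to set beside these stem counts.

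Of 14 tested tubulins 5 rose and 4 fell, shares near the 32.4% and 28.8% of all genes tested, with a median of -0.08. Of 26 tested heat shock genes 10 rose and 6 fell, with a median of 0.47. Of 40 tested proteasome subunits 15 fell and 2 rose, with a median of -0.42. Without depleted replicate 2, where 6696 of 20189 genes tested fell, 26 of them fell. The immunoproteasome subunit PSMB10, 1 of the 2 rises, had 32.8, 48.6, 39.3, 34.9 and 59.3 CPM in depleted and 16.5, 16.9, 15.4 and 13.2 CPM in control testes (log2 fold change 1.47, SE 0.21, adjusted p = 0.000594). Solute carriers, with 104 rises and 67 falls among 322 tested genes (median 0.24), and znf genes, with 28 rises and 38 falls among 134 (median -0.10), gave counts close to or below the 32.4% and 28.8% of all genes tested.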
